A study of Mus musculus with 6 samples.

Results

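Mucins and trefoil factors were examined in CFPAC-1 cells after knockdown of the keratin gene KRT7. CFPAC-1 is a human PAAD (pancreatic adenocarcinoma) cell line that carries the cystic fibrosis defect in CFTR. The 10 genes were taken by Ensembl identifier from the 30543 genes of the count table by a rule that sets no limit on a measured value, although earlier results of these data were known when they were chosen. They were 7 mucins (MUC1, MUC4, MUC5AC, MUC5B, MUC13, MUC16 and MUC20) and 3 trefoil factors (TFF1, TFF2 and TFF3). RNA was sequenced from si-KRT7 cells, which had received a siRNA against KRT7, and from si-Control cells, which had received a control siRNA without that target, with 3 libraries of each. Both groups were therefore of the same line and both had been transfected. The labels number the replicates without saying whether they came from separate cultures. The study describes its in vitro data as coming from independent experiments, in a legend that also covers the sequencing, but does not say how these libraries relate to them. If they shared a culture, p-values would measure technical spread alone. Which siRNA duplex was used is not given in the sources used here. The count table pairs no identifier with a gene name, so the depletion of KRT7 itself and the ductal identity of the cells were not checked here. The study reports RT-qPCR of the knockdown in CFPAC-1 cells, without saying whether the sequenced cultures were those measured.

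Mucins are large, heavily O-glycosylated proteins of epithelial surfaces. The membrane mucins MUC1, MUC4, MUC13, MUC16 and MUC20 are anchored in the apical membrane and carry long glycosylated ectodomains, whereas MUC5AC and MUC5B are secreted and polymerize into the mucus gel. Trefoil factors are small, disulfide-rich peptides that are secreted along with gel-forming mucins and aid the repair of mucosal surfaces. Normal pancreatic ducts hold little of several of these genes, while MUC1, MUC4, MUC5AC, MUC16 and the trefoil factors are often expressed in pancreatic ductal tumors. CA125, a serum tumor marker, is an epitope of MUC16.

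Total counts ran from 28208896 to 36315802 per library. Of the 10 genes, 9 passed edgeR's filter on low counts and were tested among 15736 genes. TFF3, with 2 to 20 counts per library, was not tested. Correlations of log2 CPM (each count scaled to a common library total) across genes, which are not independent replicates, were 0.991 to 0.992 within si-Control and 0.992 between si-KRT7 replicates 1 and 3. Replicate 2 of si-KRT7 stood apart, with 0.982 to either of them, below the 0.983 to 0.986 found between the groups. Fold changes, sums and ratios are therefore also given without it, after the values with all libraries.

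In si-KRT7 cells, MUC16 and MUC4 were higher than in si-Control cells, by 2.03-fold and 1.46-fold, and the other 7 genes tested did not pass the test. A gene was called at an adjusted p under 0.05 in edgeR's quasi-likelihood test, with the Benjamini-Hochberg adjustment over all genes tested. By this rule 2 of the 9 members tested were called, both higher, where 2.07% of all genes tested were called. With an absolute log2 fold change over 1 as a second limit, 1 of the 9, MUC16, was left, where 0.292% of all genes passed. The median log2 fold change was 0.55 over the 7 mucins and 0.38 over the 9 members tested, against 0.011 over all genes tested. These medians are the values of MUC4 and of MUC13, and of the 7 mucins only 2 were called. MUC13, MUC5AC and MUC5B rest on at most 59 counts per library, so the medians do not show a rise shared by the mucins. Levels below are CPM after TMM normalization. They are not corrected for gene length and so are compared between libraries and not between genes. As RNA was taken from whole cultures, more expressing cells and more RNA per cell cannot be told apart.

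MUC16 (ENSG00000181143), the CA125 mucin, showed the clearest change. Its level was 9.45, 10.1 and 9.38 CPM in si-Control replicates 1, 2 and 3 and 21.8, 17.5 and 19.4 CPM in si-KRT7 replicates 1, 2 and 3. The lowest si-KRT7 library lay far above the highest si-Control library, and replicate 2 of si-KRT7 was the lowest of its group. The si-Control mean was 9.64 ± 0.390 CPM (SD, n = 3) and the si-KRT7 mean 19.6 ± 2.14 CPM (SD, n = 3). The log2 fold change was 1.02 (standard error 0.11, 95% interval 0.76 to 1.29, adjusted p = 0.00688 in edgeR). That interval includes the limit of 1, so the position of MUC16 relative to the second limit was not resolved. By p-value it ranked 32 among the 15736 genes. Reads on MUC16 numbered 295 to 810 per library. In si-Control cells the coefficient of variation of its level was 4.05%, below the 5.52% that counting alone would give, and in si-KRT7 cells it was 10.9% against 3.98%.

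MUC4 (ENSG00000145113), a membrane mucin that binds the receptor ERBB2, rose less but more evenly. It stood at 114, 108 and 106 CPM in the si-Control libraries and at 158, 164 and 158 CPM in the si-KRT7 libraries. No library of one group entered the range of the other, and si-KRT7 replicate 2 lay with replicates 1 and 3. Relative to the si-Control mean, the 3 si-KRT7 libraries reached 145%, 150% and 144%. The si-Control and si-KRT7 means were 109 ± 4.60 CPM (SD, n = 3) and 160 ± 3.52 CPM (SD, n = 3), with a log2 fold change of 0.55 (standard error 0.072, 95% interval 0.38 to 0.72, adjusted p = 0.0114 in edgeR). The counts behind these levels were 3321 to 5875 per library. MUC4 ranked 69 by p-value.

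Neither gene passed once any single si-Control library was left out. MUC16 then had adjusted p-values of 0.0749 to 0.0873 and MUC4 of 0.107 to 0.134 in edgeR, with log2 fold changes of at most 1.06 for MUC16 and of 0.52 to 0.58 for MUC4. In those fits at most 10 genes in the whole table were called. MUC4 also missed the limit without si-KRT7 replicate 3 (adjusted p = 0.0699 in edgeR). A two-sided exact permutation test cannot go below p = 0.1 with 3 libraries in each group, and MUC16, MUC4 and TFF2 each reached that value.

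**Figure D1:**
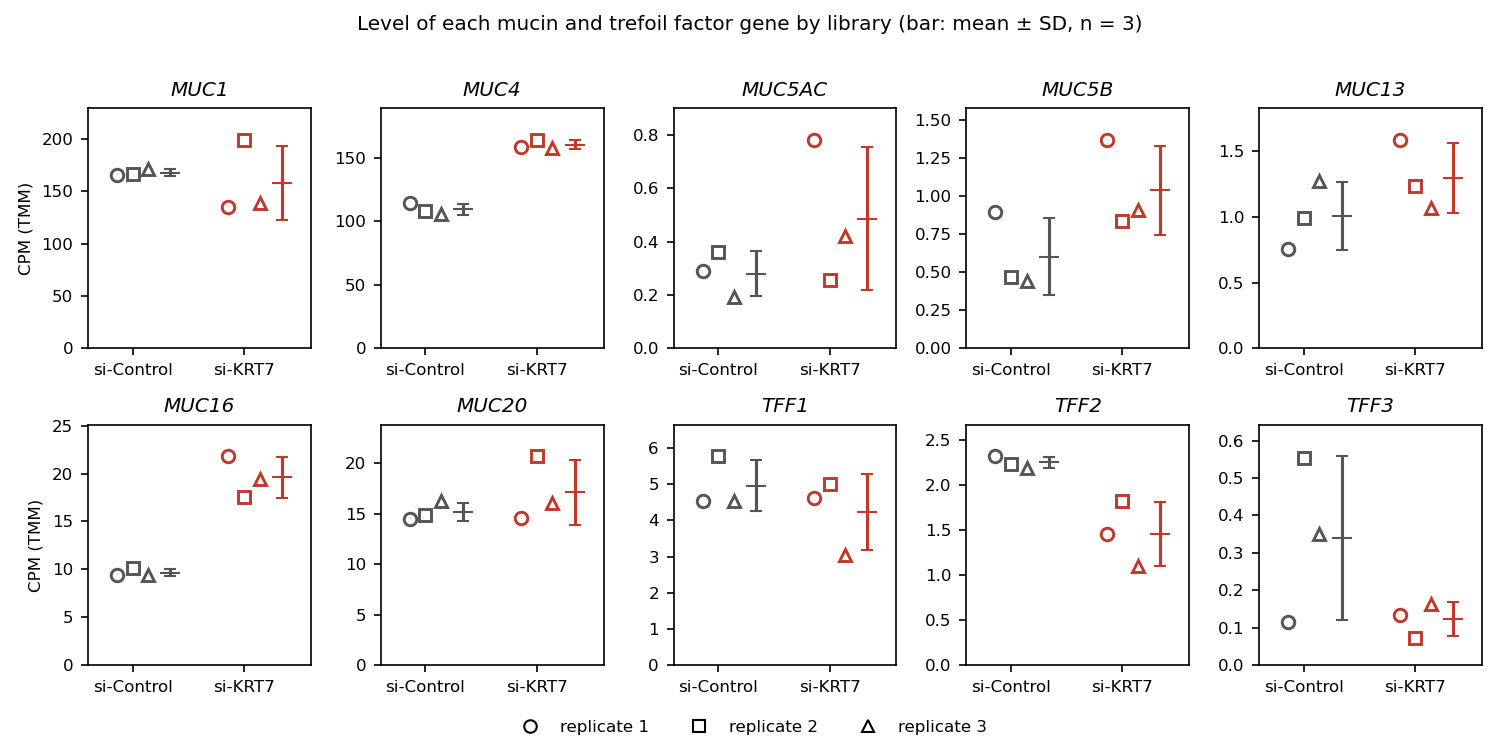
Level of each of the 10 genes in TMM-normalized CPM (vertical axes start at 0, 1 panel per gene) in si-Control (grey) and si-KRT7 (red) libraries; symbols mark the replicates and the bar beside them the mean ± SD (n = 3). The groups are separate in MUC4, MUC16 and TFF2 and overlap in the other 7 genes.

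MUC1 (ENSG00000185499), the membrane mucin whose glycoforms include the epitope CA15-3, was counted 4295 to 6030 times per library. Its si-Control libraries lay close together at 165, 167 and 172 CPM. The si-KRT7 libraries fell on both sides of them, with 136 CPM in replicate 1, 139 CPM in replicate 3 and 199 CPM in replicate 2. The coefficient of variation was 1.94% in si-Control and 22.6% in si-KRT7 cells, where counting alone gives 1.32% and 1.42%. With all libraries the log2 fold change was -0.086 (95% interval -0.41 to 0.24, adjusted p = 0.793 in edgeR). That interval allows a fold between 0.751 and 1.18. Without si-KRT7 replicate 2 it was -0.29 (standard error 0.037, 95% interval -0.37 to -0.21, adjusted p = 9.05e-07 in edgeR), which is a call in the lower direction. That replicate was left out because these same data showed it apart, so the p-value and interval are conditional on that choice. In that fit 6944 genes were called, against 325 with all libraries.

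MUC20 (ENSG00000176945), a membrane mucin that binds the receptor MET and lies next to MUC4 in the genome, showed a like pattern among the libraries. It was at 14.4, 14.9 and 16.2 CPM in the si-Control libraries. Replicates 1 and 3 of si-KRT7, with 14.6 and 16.1 CPM, lay within that range, and replicate 2 lay above it with 20.7 CPM. The log2 fold change was 0.17 with all libraries (95% interval -0.16 to 0.50, adjusted p = 0.564 in edgeR) and 0.0090 without replicate 2 (95% interval -0.19 to 0.20). A near-identical copy of MUC20 lies close by in the human genome, and how reads that match both were counted is not given in the sources used here, so its counts are uncertain.

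MUC13 (ENSG00000173702), a membrane mucin of the gastrointestinal tract, was counted 26 to 59 times per library. It stood at 0.753, 0.995 and 1.27 CPM in si-Control and at 1.59, 1.24 and 1.07 CPM in si-KRT7 cells. The groups overlapped. Its interval, -0.30 to 1.05 on the log2 scale, leaves room for a fold of 2.07 higher as well as for one of 0.814 (adjusted p = 0.539 in edgeR).

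Both gel-forming mucins were near the lower end of what could be counted. MUC5AC (ENSG00000215182), the main secreted mucin of gastric surface cells, had 10, 13 and 6 counts in the si-Control and 29, 7 and 13 counts in the si-KRT7 libraries. Replicate 1 of si-KRT7 was the highest, and replicate 2 lay within the si-Control range. MUC5B (ENSG00000117983), a gel-former of airways and glands, had 31, 17 and 14 counts in the si-Control and 51, 23 and 28 counts in the si-KRT7 libraries. Here too si-KRT7 replicate 1 was the highest, and replicate 2 fell below si-Control replicate 1 in CPM (0.836 against 0.898). The log2 fold changes were 0.81 for MUC5AC (standard error 0.50, adjusted p = 0.433 in edgeR) and 0.79 for MUC5B (standard error 0.38, adjusted p = 0.315 in edgeR). The intervals, -0.33 to 1.95 and -0.082 to 1.66, include 0 and also folds of up to 3.87 for MUC5AC and 3.15 for MUC5B. The coefficients of variation of MUC5AC were 30.3% in si-Control and 55.3% in si-KRT7 cells, where counting alone gives 32.2% and 24.7%. That of MUC5B was 42.2% in si-Control cells, where counting alone gives 22.0%.

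The trefoil factors had means below those of si-Control in all 3 genes. Direction alone says little, as 51.7% of all genes tested had a log2 fold change above 0 and the rest did not. None of the 2 tested was called by edgeR with all libraries. Of the 2, TFF2 had an unadjusted p under 0.05 in edgeR, as did 18.6% of all genes tested. TFF2 (ENSG00000160181), a peptide of gastric mucous neck cells, had 80, 81 and 69 counts in the si-Control and 54, 50 and 34 counts in the si-KRT7 libraries. In CPM these were 2.32, 2.24 and 2.19 against 1.45, 1.82 and 1.10, so that every si-KRT7 library lay below every si-Control library. The log2 fold change was -0.63 (standard error 0.23, 95% interval -1.16 to -0.10), with an unadjusted p of 0.0246 and an adjusted p of 0.199 in edgeR. Without si-KRT7 replicate 2, the library nearest to si-Control, it was -0.81 (standard error 0.26, adjusted p = 0.0146 in edgeR). As for MUC1, that p-value is conditional on leaving out a library that these same data showed apart. The si-Control libraries varied by 2.82%, less than the 11.4% that counting alone would give, so their closeness understates the error of their mean.

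TFF1 (ENSG00000160182), an estrogen-responsive peptide of gastric surface cells, was at 4.55, 5.77 and 4.54 CPM in si-Control and at 4.63, 5.02 and 3.05 CPM in si-KRT7 cells. Replicates 1 and 2 of si-KRT7 lay within the si-Control range and replicate 3 below it. Its log2 fold change was -0.23 (95% interval -0.71 to 0.25, adjusted p = 0.607 in edgeR). TFF3 (ENSG00000160180), the trefoil peptide of intestinal goblet cells, was counted 4, 20 and 11 times in the si-Control and 5, 2 and 5 times in the si-KRT7 libraries. The si-Control libraries alone spanned from 4 to 20 counts, and si-Control replicate 1 lay among the si-KRT7 libraries. Its level varied by 64.4% among the si-Control libraries, where counting alone gives 29.3%. The exact permutation test of its CPM gave p = 0.3, where 0.1 is the smallest possible, so it could not have passed 0.05.

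**Figure D2:**
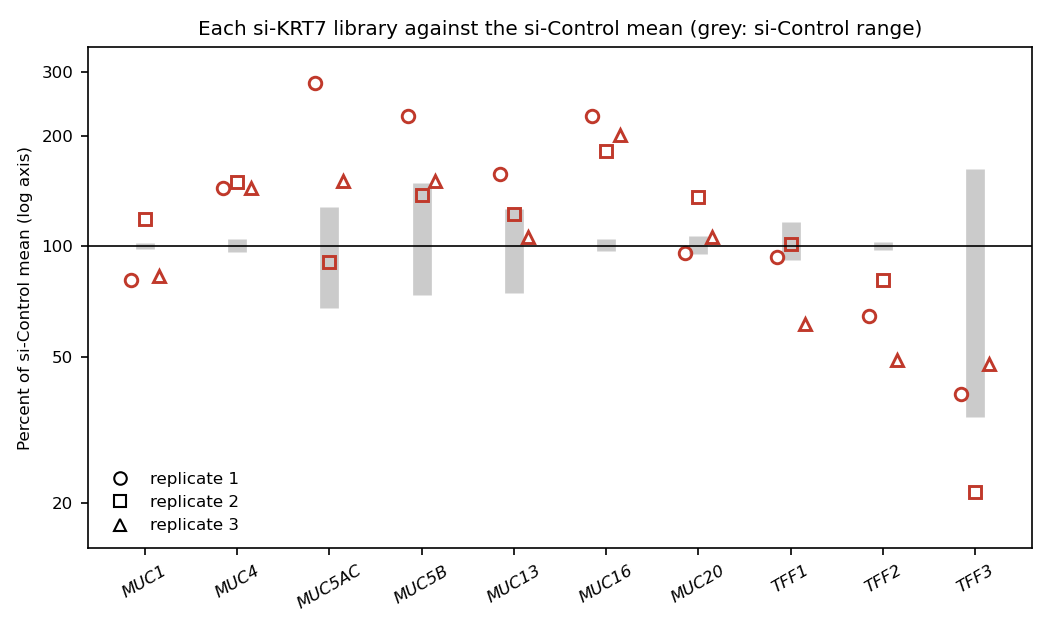
Level of each gene in the 3 si-KRT7 libraries (red, symbols mark replicates) as a percentage of the si-Control mean (vertical log axis), with the range of the 3 si-Control libraries in grey. MUC4 (144% to 150%) and MUC16 (182% to 226%) lie above the si-Control range in every library and TFF2 (49.1% to 80.8%) below it, while replicate 2 is on the other side of the si-Control range from replicates 1 and 3 in MUC1 (119% against 80.8% and 83.0%).

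The si-KRT7 and si-Control groups did not overlap in 3 of the 9 members tested. MUC4 and MUC16 were higher without overlap, 2 of 9, where 11.3% of all genes tested were. TFF2 was lower without overlap, 1 of 9, where 13.0% of all genes tested were. Summed over the 7 mucins, the level was 306, 301 and 305 CPM in the si-Control and 334, 404 and 335 CPM in the si-KRT7 libraries. Each si-KRT7 sum was above each si-Control sum, and replicate 2, with the most MUC1, was the highest. Without MUC1 the sums were 140, 135 and 133 CPM against 198, 205 and 196 CPM, and replicate 2 no longer stood out. Most of this sum came from reads on MUC4, with means of 109 CPM of 136 in si-Control and 160 CPM of 200 in si-KRT7 cells. As CPM is not corrected for gene length, this gives the weight of MUC4 in the sum and not its transcripts relative to other genes. The 3 trefoil factors together came to 7.55 ± 0.884 CPM (SD, n = 3) in si-Control libraries against 5.81 ± 1.34 CPM (SD, n = 3) after si-KRT7. Of these sums, TFF1, whose groups overlapped and which was not called, made up 4.96 CPM in si-Control and 4.23 CPM in si-KRT7 cells. The highest trefoil sum in si-KRT7, replicate 2 with 6.91 CPM, lay just below the lowest in si-Control, with 6.98 CPM. These sums were not tested.

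The make-up of the mucin reads shifted with these changes. MUC1 took 54.1%, 55.3% and 56.3% of the reads on the 7 mucins in the si-Control libraries and 40.6%, 49.4% and 41.6% in the si-KRT7 libraries. MUC4 took 37.4%, 35.8% and 34.7% in si-Control and 47.4%, 40.6% and 47.1% in si-KRT7 cells. MUC16 took 3.09%, 3.35% and 3.08% in si-Control and 6.53%, 4.34% and 5.80% in si-KRT7 cells. For MUC20 the shares were 4.99% ± 0.304 and 4.76% ± 0.381 (SD, n = 3 each). In replicate 2 of si-KRT7 the shares of MUC1, MUC4 and MUC16 lay between those of the si-Control libraries and of the other si-KRT7 libraries. Shares of reads also reflect gene length and do not give the numbers of transcripts.

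**Figure D3:**
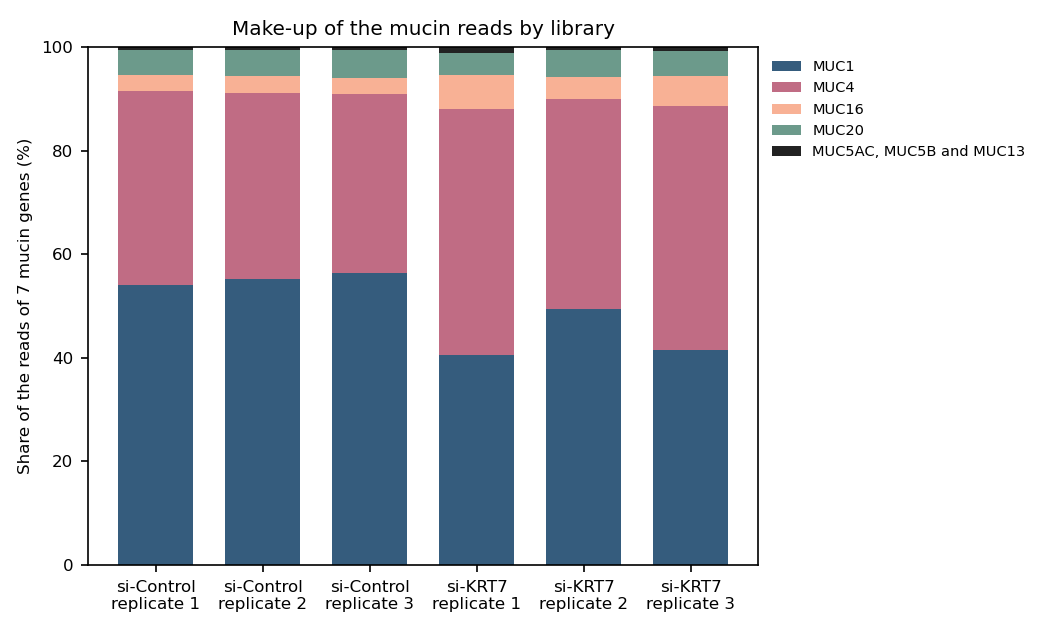
Share of the reads on the 7 mucin genes (vertical axis, percent) taken by each gene in each library, with MUC5AC, MUC5B and MUC13 drawn as 1 segment. The MUC1 segment covers 54.1% to 56.3% in si-Control and 40.6% to 49.4% in si-KRT7 libraries, and the MUC4 segment 34.7% to 37.4% and 40.6% to 47.4%.

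Several members are neighbors in the genome, and 4 ratios between neighbors were compared within libraries, which removes any effect of library size. TFF1 to TFF2 differed by 0.40 on the log2 scale, with 0.97, 1.36 and 1.05 in the si-Control and 1.66, 1.46 and 1.45 in the si-KRT7 libraries. The groups did not overlap, so that TFF2 was lower relative to TFF1 in every si-KRT7 library (exact permutation p = 0.1, the smallest possible, and 0.4 after the Benjamini-Hochberg adjustment over the 4 ratios). MUC4 to MUC20 differed by 0.39, with 2.85 ± 0.142 in si-Control and 3.24 ± 0.232 in si-KRT7 cells (SD, n = 3 each). Replicate 2 of si-KRT7 lay level with the highest si-Control library in this ratio, at 2.99 (exact permutation p = 0.2, adjusted 0.4). MUC5AC to MUC5B differed by -0.14 and TFF1 to TFF3 by 0.91, less than or close to the spread between replicates in genes of such low counts (exact permutation p = 0.9 and 0.3, adjusted 0.9 and 0.4).

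Without si-KRT7 replicate 2, all 10 members passed the filter and 4 were called. The p-values of this fit are conditional on leaving out a library that these same data showed apart. MUC16 (log2 fold change 1.10, adjusted p = 2.58e-09 in edgeR) and MUC4 (0.53, adjusted p = 3.36e-10 in edgeR) were higher, and MUC1 and TFF2 were lower. In this fit 20.9% of all genes tested were called higher and 22.0% lower, so 2 of 10 members in each direction is close to the share over all genes. MUC5AC, MUC5B, MUC13, MUC20, TFF1 and TFF3 were not called, with adjusted p-values from 0.0809 to 0.954 in edgeR. Their log2 fold changes were 1.09, 0.91, 0.41, 0.0090, -0.36 and -1.19 in that order. On the log2 scale the summed mucin level was 0.14 higher than in si-Control without replicate 2 and 0.23 higher with it, and the summed trefoil factor level differed by -0.54 without it and -0.40 with it. Without replicate 2 the ratio of MUC4 to MUC20 differed by 0.52 on the log2 scale, that of TFF1 to TFF2 by 0.43, that of TFF1 to TFF3 by 0.50 and that of MUC5AC to MUC5B by 0.098. The estimates for MUC4 and MUC16 moved little between the fits, whereas that for MUC1 moved from -0.086 to -0.29.

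**Figure D4:**
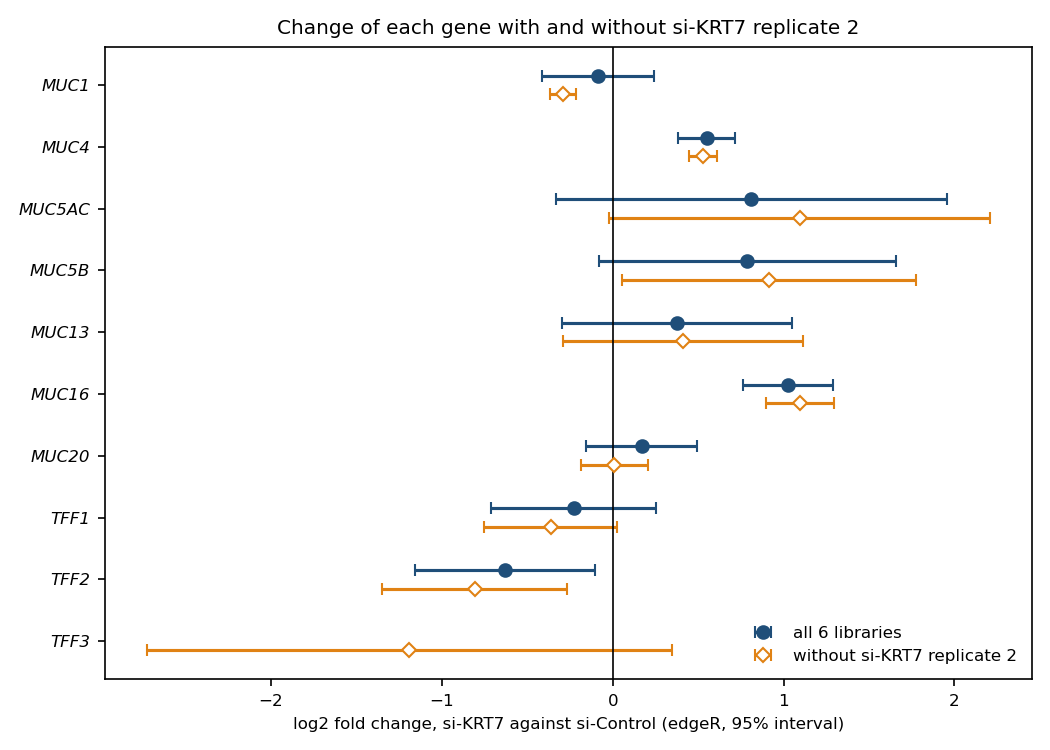
Log2 fold change of each gene in si-KRT7 against si-Control cells (horizontal axis) from edgeR with its 95% interval, with all 6 libraries (filled circles) and without si-KRT7 replicate 2 (open diamonds); of these fits TFF3 was tested in the latter. With all libraries the intervals of MUC4 (0.38 to 0.72), MUC16 (0.76 to 1.29) and TFF2 (-1.16 to -0.10) exclude 0, of which TFF2 did not pass the adjustment over all genes.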

How the data were processed

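The deposited table holds raw read counts, a whole number for every gene in each of the 6 libraries, from poly(A)-selected RNA sequenced on the DNBSEQ platform. The submitters' processing notes list STAR 2.7.11b and the mouse build GRCm39, and the labels name the mouse, yet all 30543 identifiers are human Ensembl identifiers. The reference, counting tool, strand setting and treatment of multiply matching reads are not given in the sources used here, which bears on mucins with repeats or near copies. The name tables used here are those of the mouse and matched 0 identifiers, so the lists of other mucins, O-glycosylation enzymes, secretory genes and cell type markers were not analysed, and gene positions, lengths and sequences are not given. Symbols of the 10 members came with their identifiers.

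The test was that of edgeR 4.0.16 under R 4.3.3 (filterByExpr, TMM, glmQLFit, glmQLFTest, Benjamini-Hochberg over all genes tested). The script was tested on simulated data with the same spread for all genes and no outlying library. That test does not cover a library such as si-KRT7 replicate 2. Standard errors and intervals were derived from the F statistic. The coefficient of variation from counting is that of a Poisson count. Ratios used counts plus 0.5. All 10 members were to be described whatever their result. The members, lists and tests were chosen with earlier results of these data known. Alternatives used DESeq2 1.42.0 and limma 3.58.1.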

Additional observations from a re-analysis of the deposited data

How the results depend on the processing

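MUC16 was called in 12 of 15 alternatives (log2 fold change 0.94 to 1.10, adjusted p 6.26e-11 to 0.0873) and MUC4 in 10 of 15 (0.52 to 0.58, adjusted p 3.36e-10 to 0.134), and both were higher in all 15. The 2 members called, the 325 genes called and the 46 past both limits stayed within 1.5 times in the robust fit, in limma-voom, with at least 10 counts in every library, and with library size alone or the size factors of DESeq2. Sample quality weights in limma-voom gave 5 of 9 members (3 higher, 2 lower: MUC1 and TFF2), where 6858 of all 15736 genes tested were called. In that fit 443 genes were past both limits, and MUC5B, the third member called higher, had an adjusted p of 0.0475. The DESeq2 Wald test gave 2 members, 1148 genes and 103, and no filter 2 members, 1347 genes and 154.

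With the replicate block, 1 of 9 members was called, MUC16, which was higher (adjusted p = 0.0280 in edgeR), while MUC4 was not called (adjusted p = 0.0713 in edgeR). In that fit 76 of 15736 genes were called and 25 were past both limits. Deviations of same-numbered libraries correlated at 0.0520, -0.0798 and -0.0728, and 1 of 6 correlated best with its own number. With si-KRT7 replicate 2 apart, this cannot exclude pairing.

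Leaving out each library in turn gave 0 to 4 members called (0 to 2 higher, 0 to 2 lower), 0 to 1 past both limits, 6 to 6944 genes called and 6 to 356 past both limits; the lowest numbers of members and genes called came without a si-Control library and the highest without si-KRT7 replicate 2. The log2 fold change of MUC1 ran from -0.29 without si-KRT7 replicate 2 to 0.011, a reversed sign, without si-KRT7 replicate 1. The log2 ratio difference of MUC5AC to MUC5B ran from -0.41 to 0.19 and was positive without si-Control replicate 2 (0.19) and without si-KRT7 replicate 2 (0.10). The summed levels and the other ratios kept their sign, but some moved by over 1.5 times on the log2 scale. The summed trefoil factors went from -0.40 to -0.20 without si-KRT7 replicate 3, the summed mucins from 0.23 to 0.14 without si-KRT7 replicate 2, and TFF1 to TFF3 from 0.91 to 0.50 without si-KRT7 replicate 2, to 0.57 without si-Control replicate 2 and to 1.46 without si-Control replicate 1. The cause was not tested. MUC5AC could not be fitted with at least 10 counts in every library, and the alternatives planned for the lists of other genes were not run because no names were paired with the identifiers. MUC5AC, MUC5B, MUC13 and TFF3 rest on at most 59 counts per library, and how far depth limits their tests was not tested.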

Other observations

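The ratio of MUC4 to MUC1 reads, which was picked after the values had been seen and is given without a test, was 0.692, 0.649 and 0.615 in si-Control replicates 1, 2 and 3 and 1.17, 0.823 and 1.13 in si-KRT7 replicates 1, 2 and 3. In si-KRT7 replicates 1 and 3, but not in replicate 2, reads on MUC4 outnumbered those on MUC1. All si-KRT7 libraries had a higher ratio than any si-Control library. As both reads come from the same library, the ratio does not depend on its size.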
